A study of Homo sapiens with 12 samples.

Results

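The 88 genes described here are the ones that held the most intron counts in RNA-seq of TYK-nu cells. For each of 17508 genes the intron counts of the 12 libraries were summed, the 100 largest sums were taken, and genes of the collagen, integrin, laminin, ribosomal protein, HNRNP and RBM families were left out by their symbols, which removed 12 genes, all of the ribosomal protein, HNRNP and RBM families. The members were thus chosen on their summed intron counts, so the size of these sums is a description and not a result. TYK-nu is a human cell line that the labels call a high grade ovarian serous adenocarcinoma line, and nothing in the labels says whether it is 1 clone. Cells received 15 μM cisplatin, a platinum drug that forms DNA adducts, or DMSO, the control, for 24 or 72 h, in 4 groups of 3 libraries made from poly(A) RNA. The study set exon against intron counts to ask whether splicing differed between treated and control cells. All 12 libraries share the line and the medium, and time in culture differs together with time in drug or DMSO.

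Introns are removed from a pre-mRNA while or soon after it is transcribed, so intron reads in poly(A) RNA can come from transcripts in which an intron was kept or not yet removed. They can also come from another transcript that lies inside the intron, such as a neighbouring gene, a snoRNA precursor or a processed pseudogene, which is a copy of an mRNA pasted back into the genome. A readthrough gene is an annotated transcript that joins neighbouring genes, so that the exons of one of them can lie in its introns. A sequence that is an intron in one transcript of a gene can be an exon in another. The way a read is assigned to an exon, to an intron or to none therefore bears on every count given here.

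Of the 88 members, 7 carried in an intron, on their own strand, a processed copy that matched at least 95% of the bases of another gene's mRNA over at least 300 bases. The copies in 4 of these introns are shown because a read of 100 bases from the parent gene and from the copy can be nearly the same. Each pair gives 60 bases read 5′ to 3′ from GRCh38 on the strand named, and beneath them the 60 bases of the parent's coding sequence from GENCODE 44. Capitals mark the bases at which copy and parent differ.

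Copy of EEF1G in CHCHD3, chr7:133035782-133035841, minus strand: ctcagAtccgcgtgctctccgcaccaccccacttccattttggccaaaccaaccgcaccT
EEF1G, coding bases 80 to 139: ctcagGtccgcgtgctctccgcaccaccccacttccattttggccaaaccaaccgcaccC
Copy of EEF1A1 in STEAP1B, chr7:22511706-22511765, minus strand: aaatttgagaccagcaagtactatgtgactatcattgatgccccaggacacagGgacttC
EEF1A1, coding bases 235 to 294: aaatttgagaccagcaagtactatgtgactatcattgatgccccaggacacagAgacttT
Copy of ITGB1 in ADGRE3, chr19:14622183-14622242, minus strand: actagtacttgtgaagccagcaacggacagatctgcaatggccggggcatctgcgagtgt
ITGB1, coding bases 1786 to 1845: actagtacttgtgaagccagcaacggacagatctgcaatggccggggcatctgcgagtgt
Copy of RPS26 in NHSL2, chrX:72044565-72044624, plus strand: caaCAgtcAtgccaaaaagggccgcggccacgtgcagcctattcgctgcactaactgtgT
RPS26, coding bases 21 to 80: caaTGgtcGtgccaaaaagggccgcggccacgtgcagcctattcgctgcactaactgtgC

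The windows held 2, 2, 0 and 4 differences, in the order printed. Each window was chosen as an ungapped coding stretch of that length with the most differences in its match. Over the whole match the EEF1G copy was 99.2% identical over 1314 bases (chr7:133034607-133035920), the EEF1A1 copy 99.4% over 1385 bases, the ITGB1 copy 100% over 609 bases and the RPS26 copy 97.7% over 348 bases. The other copies were of NPM1 in FAM172A, of TMEM183A in PFN2 and of RPS14 in MICOS10-NBL1. Another kind of element in an intron is the microRNA pair of EGFL7, an endothelial secreted factor. Their mature sequences, from RefSeq on GRCh38.p14, are given with the seed (bases 2 to 8) in capitals.

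hsa-miR-126-5p, chr9:136670616-136670636, plus strand: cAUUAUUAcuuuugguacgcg
hsa-miR-126-3p, chr9:136670653-136670674, plus strand: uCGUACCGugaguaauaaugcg

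The 88 members held 5566095 of 27903602 intron counts, or 19.9%. The median member had a sum of 39102, against 515 over the 13668 genes with at least 1 intron count. The first 4 members alone held 5.65% of all intron counts, and the first 12 held 9.2%, which was 46.1% of the members' own. The last members inside the 100 were ARPC4, an actin-nucleating complex subunit, with 24527 and ADTRP with 24416, and the first genes outside were MED22 with 24386 and DDX17 with 24227, so the limit fell where the sums were close together. No single library carried a member: scaled to library totals, the largest share of a member's intron counts from 1 library was 15.2%, in OAS1. Intron totals ran from 1185012 to 4840181 a library and exon totals from 17341818 to 63913081.

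The largest sum was that of RPLP0, the stalk protein of the large ribosomal subunit (chr12:120196699-120201235, minus strand), with 710576 intron counts. Its symbol has no number after RPL, so the rule kept it although it encodes a ribosomal protein. NME1-NME2, a readthrough of the nucleoside diphosphate kinase genes (chr17:51153590-51171744, plus strand), followed with 372536. CHCHD3, a protein of the mitochondrial cristae junction complex (chr7:132784870-133082090, minus strand), had 261632, and TPT1, the translationally controlled tumor protein (chr13:45333471-45341284, minus strand), had 231517. The next were MATR3, a nuclear matrix protein that binds RNA, entered under ENSG00000015479, with 174411, the adaptor SHC1 with 139641 and the cytoskeletal linker MACF1 with 133106. EGFL7 had 122518, ABCF2 121374, the glycolytic enzyme PKM 102087, the adenylate kinase AK6 100506 and the actin-binding profilin PFN2 97093.

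**Figure D1:**
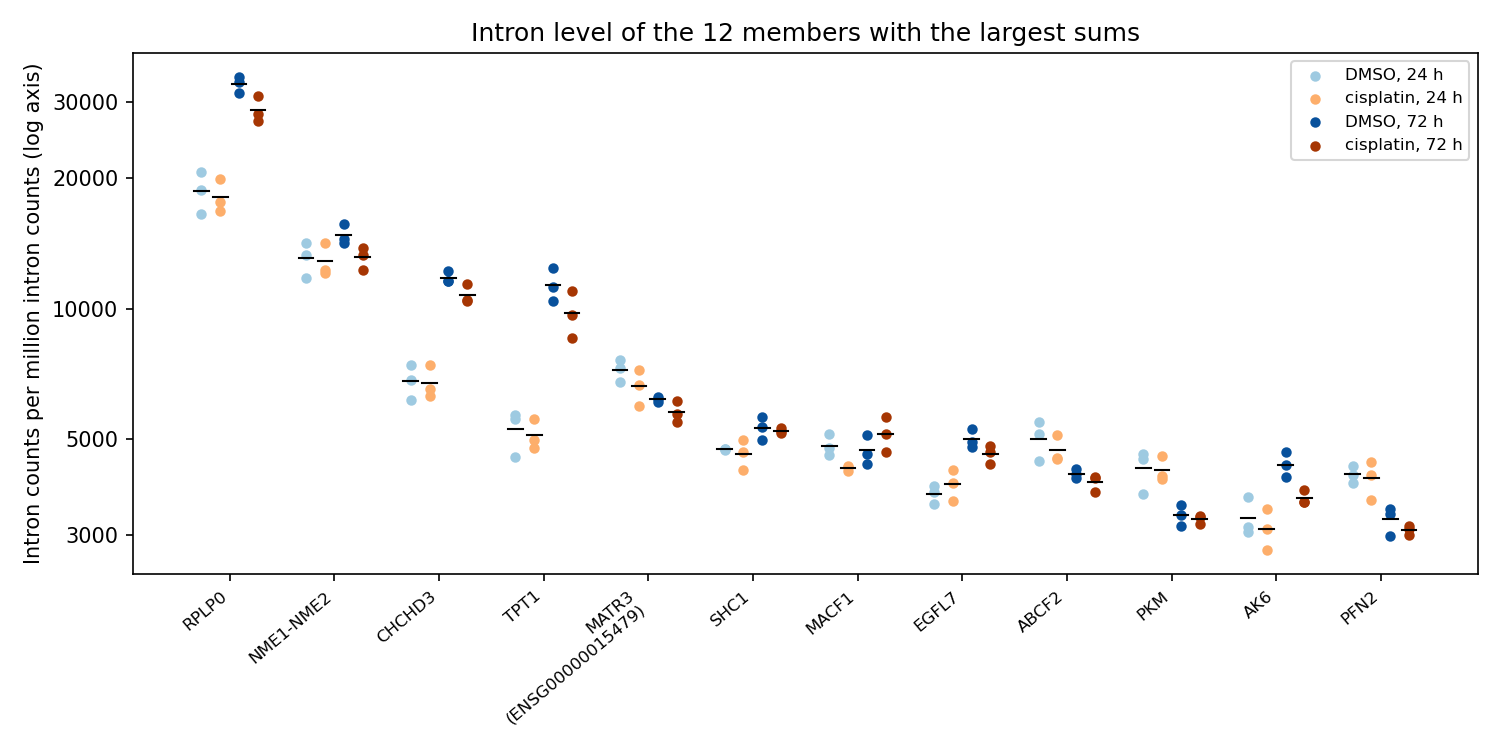
Intron counts per 1000000 intron counts (log axis, scaled by TMM library sizes, not divided by length) of the 12 members with the largest sums. Points are the 3 libraries of each group and bars their means; RPLP0, CHCHD3 and TPT1 stand higher at 72 h than at 24 h in DMSO and in cisplatin, and the points of PKM and PFN2 stand lower.

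The intron share of a member's own counts spanned nearly the whole range. Of the 88 members, 83 had an exon entry, and 37 of these had more intron than exon counts. MCAM, a cell adhesion protein, had the lowest intron share, 3.24%, on a mean of 97800 exon counts a library, and GARS1, a glycyl-tRNA synthetase, had 6.69%. At the other end, URGCP-MRPS24, BCL2L2-PABPN1, ATP5MF-PTCD1, NEDD8-MDP1 and ADGRE3 had 0 exon counts in every library, and all but ADGRE3 are readthrough genes. NME1-NME2, MATR3 (ENSG00000015479), ANKHD1, CHURC1-FNTB and REPIN1 had no exon entry, 5 of 88 members (5.68%) against 2.36% of all genes with an intron count. RPLP0 held a share that hardly moved: in the 12 libraries it lay between 32.0% and 32.7%, at every time and treatment.

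Per base, the order of the members was a different one. Divided by the bases that no GENCODE 44 transcript of the gene places in an exon, RPLP0 had 108000 intron counts per kb over 549 such bases and TPT1 had 30600 per kb over 631. FAM172A had 7.1 per kb over 488560 bases and STEAP1B had 8.78 per kb over 301692. RPLP0 and TPT1 also had 3152 and 2714 bases that are exon in one transcript and intron in another. The left-out RPL13 had 593684 intron counts and 0 bases outside GENCODE 44 exons, so the file's introns include bases that this annotation places in exons. The values per kb are therefore not densities of pure intron. On exon counts per kb of exon, RPLP0 was highest with 30900 and SHC1 next with 14000, and apart from the members at 0 the lowest were GNAL, a G protein subunit, with 0.296 and ABCF2-H2BK1 with 3.93.

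The annotation of the members differed from that of all genes with an intron count. Of the 87 members found in GENCODE 44, 13 (14.9%) were readthrough genes, against 58 of 13662 genes (0.425%). A further group of 15 (17.2%, against 6.43%) was overlapped on its own strand by a readthrough gene. Exons of another coding gene on the same strand lay in an intron of 21 members (24.1%, against 3.25%), and still of 8 (9.2%, against 2.83%) when readthrough genes were left out. A close processed copy on the same strand lay in 7 members (8.05%, against 0.856%), and none of the 87 held one on the opposite strand, where 1.32% of all genes did. Exons of other genes on the opposite strand were equally frequent, in 48.3% of members and 48.4% of all genes. These shares are descriptions, since a gene's intron sum and its annotation are not independent.

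**Figure D2:**
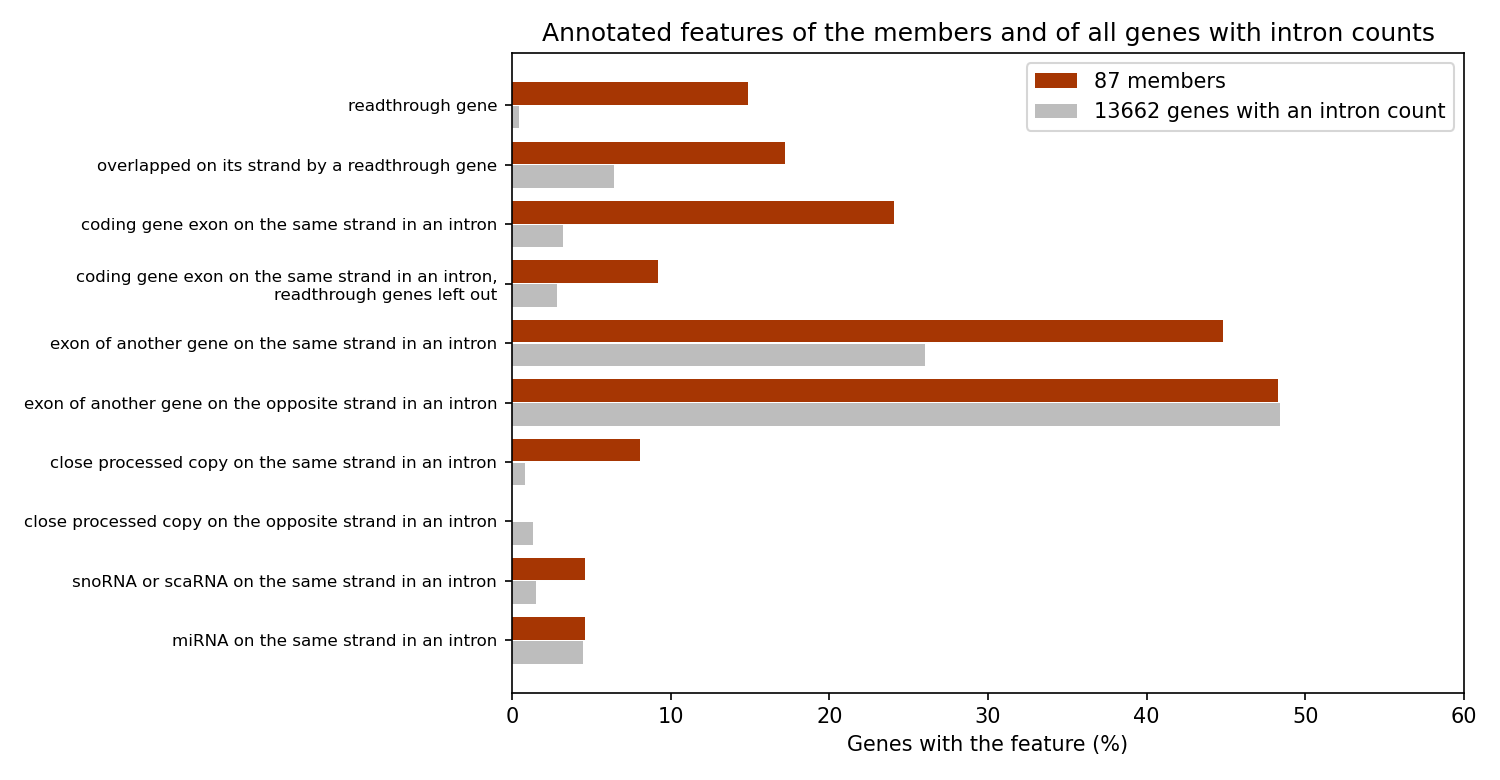
Percentage of the 87 annotated members (dark bars) and of the 13662 annotated genes with an intron count (grey bars) that carry each feature of GENCODE 44. The gap is wide for same-strand coding exons (24.1% against 3.25%), readthrough genes stand at 14.9% against 0.425% and same-strand processed copies at 8.05% against 0.856%, and the bars are level for opposite-strand exons.

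The members were close to all genes in length. Their gene bodies had a median of 33300 bases, against 34500 over all genes with an intron count, and their purely intronic bases 25900 against 28500. They had a median of 11 annotated transcripts, against 8, and 3110 bases that are exon in one transcript and intron in another, against 1790. Their median exon count was 4120 a library, against 596. Of the members, 15 overlapped no other gene, and these held 25.1% of the members' intron counts. The 13 readthrough members held 14.8%, and the 7 with a close copy 9.8%.

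By function, 7 members belonged to a list of 54 splicing factor and nuclear speckle genes, the genes of the bodies in which splicing factors are stored: DDX5, PABPN1, LUC7L2, DDX39B, SRSF10, SRSF1 and SRSF11. PKM, LDHA and SLC3A2 came from 43 glycolysis and metabolism genes. TPT1, EIF4A2 and RCC1 came from 52 snoRNA host genes, whose introns are processed to small nucleolar RNAs. MACF1 and CTTN came from 68 cytoskeleton genes, TPT1 and EIF4A2 from 36 translation factors and HSPE1 from 34 chaperone and stress genes. No member came from the lists of chromatin, extracellular matrix, signalling or long noncoding RNA genes, and of the 27 genes on the last list 1 had an intron count. Some members are best known from endothelium, such as TIE1, EGFL7 and MCAM, and the endothelial genes PECAM1 and CDH5 had means of 57900 and 26500 exon counts a library. The endothelial marker VWF had a mean of 21.8. Among the serous ovarian markers, the keratins KRT18 and KRT8 had means of 4900 and 788, WT1 had 81.1, KRT19 67.8, EPCAM 30.6, KRT7 1.92 and PAX8 0.667, while CDH1 and FOLR1 were at 0 in every library, as was the leukocyte marker PTPRC. The markers of the label were thus mixed, with KRT18 well counted and PAX8, CDH1 and FOLR1 at or near 0. KRT8 was nearer the median of 596 over all genes. Of the endothelial markers, PECAM1 and CDH5 were well counted and VWF was not. Of the mesenchymal markers, VIM had a mean of 248000, ZEB1 7360 and FN1 1470, and CDH2 was at 0. The part of this in the results was not tested.

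Time in culture was the first comparison. Intron counts of 35 members rose and of 23 fell between 24 and 72 h in DMSO, of 88 tested (edgeR quasi-likelihood test on the 12 libraries, Benjamini-Hochberg adjusted over all genes tested, threshold 0.05). Over all 9618 genes tested, 33.4% passed. In cisplatin 33 members rose and 26 fell, where 31.8% of all genes passed. The median member differed by 0.15 on the log2 scale in DMSO and by 0.11 in cisplatin, against -0.01 and -0.02 over all genes. The members were chosen on raw sums of these same intron counts, to which deeper libraries add more, the deepest being at 72 h, so the members' counts, medians and shares for introns with time are a description and are not read against those of all genes. The split depends on scaling: with plain library totals it was 25 up and 34 down in DMSO and 24 up and 31 down in cisplatin, with all genes shifted to medians of -0.15 and -0.12, and with library sizes from the exon counts it was 29 up and 28 down, and 28 up and 29 down. The paper says that cells were grown in triplicate and does not say how the cultures of a triplicate related to each other. The p-values measure only the spread between these libraries. The comparisons share libraries, since the DMSO libraries at 72 h serve in the time and in the cisplatin comparison. In bulk RNA, fewer cells of a type and less RNA per cell cannot be told apart.

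Exon counts were tested for 77 members, the others having no exon entry or too few counts. In DMSO 36 rose and 24 fell, where 65.1% of all genes passed, and in cisplatin 35 rose and 26 fell, where 63.5% passed. The ratio of exon to intron counts was tested for 77 members as well. It rose in 13 and fell in 9 in DMSO, where 11.5% of all genes passed, and it rose in 12 and fell in 10 in cisplatin, where 12% passed. These 22 calls in DMSO dropped to 12 without replicate 3 at 24 h or replicate 3 at 72 h, to 13 without replicate 1 at 72 h and to 14 without replicate 2 at 24 h. The 22 in cisplatin dropped to 13 without replicate 2 at 72 h and to 14 without replicate 1 at 24 h. A quasi-binomial regression gave 3 and 5. Among genes that reached 50 counts of each kind in every library, the ratio passed in DMSO for 31.4% of members and 26.6% of all. In cisplatin these shares were 34.3% and 29.3%. At 50 exon counts in every library, exon calls covered 75.7% of members and 69.2% of all genes in DMSO. In cisplatin they covered 82.9% and 67.5%. The median ratio change of the members was -0.02 in DMSO and 0.03 in cisplatin, against 0.10 and 0.11 over all genes. The ratio holds the same intron counts on which the members were chosen. The members' ratio calls, medians and shares with time are therefore a description too and are not read against those of all genes. The members described next are ordered by whether exon and intron counts changed together.

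**Figure D3:**
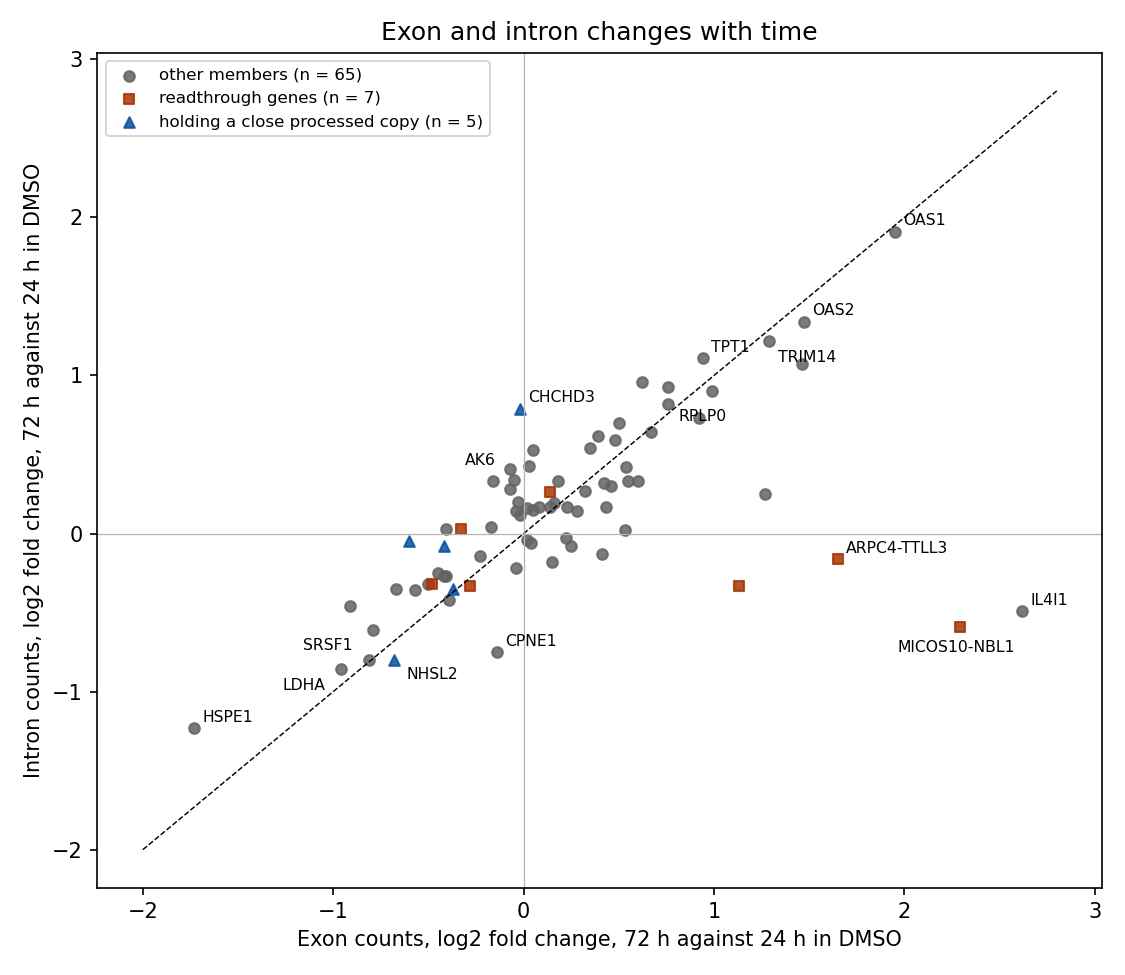
Log2 fold change of intron counts against that of exon counts from 24 to 72 h in DMSO for the 77 members tested on both; the dashed line marks equal change. OAS1, OAS2 and HSPE1 lie near the line, CHCHD3 and AK6 above it at an exon change near 0, and IL4I1, MICOS10-NBL1 and ARPC4-TTLL3 far to its right. MICOS10-NBL1, which also holds a copy, is drawn as a readthrough gene.

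Intron counts rose most in OAS1, OAS2 and TRIM14, and their exon counts rose as well. OAS1, an interferon-induced sensor of double-stranded RNA that makes 2′-5′ oligoadenylates, had intron levels (counts per 1000000 intron counts, CPM) of 798, 639 and 516 in DMSO and 647, 591 and 710 in cisplatin at 24 h, and of 2810, 2260 and 2280 in DMSO and 2160, 2110 and 2230 in cisplatin at 72 h. Every library at 72 h stood above every library at 24 h. The intron counts rose by 1.91 ± 0.10 (log2 fold change ± SE, n = 3 against 3, edgeR adjusted p = 5.33e-23) in DMSO and by 1.74 ± 0.10 in cisplatin, and its exon counts by 1.95 ± 0.09 and 1.82 ± 0.09. Its intron share stayed between 26.8% and 30.2%. OAS2, of the same family, had intron levels of 1800, 1740 and 1620 in DMSO at 24 h and 4830, 4130 and 4150 at 72 h, and its intron counts rose by 1.34 ± 0.08 in DMSO and 1.24 ± 0.08 in cisplatin. TRIM14, an adaptor of antiviral signalling, rose by 1.22 ± 0.09 and 1.21 ± 0.09 in introns and by 1.29 ± 0.11 and 1.38 ± 0.11 in exons. OSCAR, an immune receptor for collagen, rose by 1.07 ± 0.08 and 0.92 ± 0.08 in introns and by 1.46 ± 0.06 and 1.39 ± 0.06 in exons. In all these genes the ratio of exons to introns moved less than either count.

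RPLP0, TPT1, MDK and OGT rose in intron and in exon counts. RPLP0 had intron levels of 18800, 20700 and 16500 in DMSO at 24 h and 33400, 34300 and 31400 at 72 h, and in cisplatin 17600, 16800 and 19900 at 24 h and 27100, 31000 and 28200 at 72 h. The groups of the 2 times did not overlap. RPLP0 introns rose by 0.82 ± 0.07 in DMSO and 0.67 ± 0.07 in cisplatin, its exons by 0.76 ± 0.05 and 0.61 ± 0.05, and its ratio differed by 0.00 ± 0.08 (adjusted p = 0.985) and -0.01 ± 0.08. TPT1 had intron levels of 5560, 5700 and 4540 in DMSO at 24 h and 10400, 12400 and 11200 at 72 h. Its introns rose by 1.11 ± 0.08 and 0.94 ± 0.08 and its exons by 0.94 ± 0.06 and 0.67 ± 0.06. The growth factor MDK rose by 0.93 ± 0.09 and 0.76 ± 0.09 in introns, and OGT, the enzyme that attaches O-GlcNAc to proteins, by 0.96 ± 0.08 and 0.93 ± 0.08. EIF4A2, an RNA helicase of translation initiation, differed from these: its exon counts rose by 0.25 ± 0.06 in DMSO while its intron counts gave -0.08 ± 0.09.

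HSPE1, LDHA, PKM and RCC1 fell in intron and in exon counts. HSPE1, the mitochondrial co-chaperonin, had intron levels of 2160, 2230 and 2100 in DMSO and 2180, 2140 and 2650 in cisplatin at 24 h, and of 919, 975 and 866 in DMSO and 898, 791 and 884 in cisplatin at 72 h. No library at 72 h reached the lowest at 24 h. Its introns fell by 1.23 ± 0.08 (edgeR adjusted p = 4.05e-18) in DMSO and fell by 1.44 ± 0.08 in cisplatin. Its exons fell by 1.73 ± 0.10 in DMSO and fell by 1.94 ± 0.10 in cisplatin, and its ratio fell by 0.41 ± 0.12 and 0.45 ± 0.12. LDHA, lactate dehydrogenase, fell by 0.86 ± 0.08 and 0.93 ± 0.08 in introns and by 0.96 ± 0.06 and 1.01 ± 0.06 in exons, and PKM by 0.36 ± 0.08 and 0.38 ± 0.08 in introns. SLC3A2, an amino acid transporter chain on the same list, rose instead, by 0.59 ± 0.08 and 0.56 ± 0.08. RCC1, the exchange factor of the GTPase Ran, fell by 0.91 ± 0.07 and 0.92 ± 0.07 in exons and by 0.46 ± 0.08 and 0.49 ± 0.08 in introns.

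Of the 7 members on the splicing list, 6 fell in exon counts in DMSO and 7 in cisplatin, at medians of -0.41 and -0.37. In intron counts 2 and 1 rose and 3 and 3 fell. Over all genes tested, 65.1% and 63.5% passed in exon counts in either direction, with 3392 and 3295 of 10444 genes falling. The exon medians over all genes were 0.01 and 0.02, and 33.4% and 31.8% passed in intron counts. The list does not hold every member with such a function. The speckle cyclin CCNL2 is not on it and went the other way. Its mean exon CPM was 32.3 at 24 h and 45.6 at 72 h in DMSO, and 28.1 and 44.4 in cisplatin. The spliceosome protein ISY1, also not on it, had 24.6 and 31.2 in DMSO, and 26.6 and 28.3 in cisplatin. SRSF1, an SR protein that promotes exon inclusion, had intron levels of 1440, 1570 and 1510 in DMSO at 24 h and 883, 905 and 806 at 72 h. Its exon and intron counts fell alike in DMSO, by 0.81 ± 0.11 and 0.80 ± 0.09. SRSF10 fell by 0.67 ± 0.08 in exons and 0.35 ± 0.08 in introns. In SRSF11, DDX5 and DDX39B the counts parted. SRSF11 had intron levels of 788, 683 and 739 in cisplatin at 24 h and 997, 966 and 1000 at 72 h, and these libraries did not overlap. Its introns rose by 0.43 ± 0.08, its exons fell by 0.17 ± 0.05 and its ratio fell by 0.54 ± 0.10 (adjusted p = 0.000852) in cisplatin, and in DMSO the ratio gave -0.28 ± 0.10 (adjusted p = 0.0781). The RNA helicase DDX5 fell in its ratio by 0.42 ± 0.10 in DMSO and 0.36 ± 0.10 in cisplatin, and DDX39B, an RNA export helicase, by 0.36 ± 0.11 and 0.37 ± 0.10. For both the ratio was lower at 72 h, and the difference between DMSO and cisplatin in this change was not past the threshold in the test of the interaction, in which 0 members were called and 2 had an unadjusted p under 0.05 for the ratio.

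The ratio fell most in CHCHD3. Its intron levels were 6850, 7430 and 6170 in DMSO and 6520, 6280 and 7410 in cisplatin at 24 h, and 11600, 12200 and 11600 in DMSO and 10500, 11400 and 10400 in cisplatin at 72 h. Its exon levels (counts per 1000000 exon counts, CPM) were 269, 282 and 298 in DMSO at 24 h and 273, 289 and 274 at 72 h, and in cisplatin 290, 280 and 292 at 24 h and 263, 264 and 251 at 72 h. In DMSO the exon levels of the times overlapped and the intron levels did not, while in cisplatin the exons were lower and the introns higher in every library at 72 h. The intron counts rose by 0.79 ± 0.07 and 0.67 ± 0.07, the exon counts gave -0.02 ± 0.05 in DMSO and fell by 0.15 ± 0.05 in cisplatin, and the ratio fell by 0.74 ± 0.10 (adjusted p = 5.47e-06) and 0.76 ± 0.10. EEF1G, the parent of the copy in CHCHD3 shown above and a subunit of a translation elongation factor, rose by 0.74 ± 0.05 and 0.61 ± 0.05 in its own exon counts. CHCHD3 introns thus had a change near that of EEF1G exons and apart from that of CHCHD3 exons, and the difference between the genes was not tested. UAP1, an enzyme of UDP-GlcNAc synthesis, fell in its ratio by 0.41 ± 0.10 and 0.48 ± 0.10, with introns that rose by 0.53 ± 0.08 and 0.50 ± 0.08.

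The other members with a copy or with a well counted gene inside did not all do the same. AK6 holds exons of TAF9, a subunit of the transcription factor TFIID, in its introns. AK6 introns rose by 0.41 ± 0.08 in DMSO and 0.24 ± 0.08 in cisplatin and TAF9 exons by 0.33 ± 0.06 and 0.19 ± 0.06, while AK6 exons gave -0.07 ± 0.08 in DMSO and fell by 0.26 ± 0.08 in cisplatin. NHSL2 introns fell by 0.80 ± 0.08 and 0.64 ± 0.08, and RPS26, the ribosomal protein gene of its copy, fell by 0.90 ± 0.07 and 1.13 ± 0.07 in exons. NHSL2 exons fell as well, by 0.68 ± 0.20 and 0.71 ± 0.19.

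In STEAP1B the introns gave -0.08 ± 0.08 and -0.19 ± 0.08 while EEF1A1, the elongation factor of its copy, rose by 0.68 ± 0.04 and 0.55 ± 0.04. STEAP1B exons fell by 0.42 ± 0.14 and 0.59 ± 0.14. The STEAP1B introns did not pass the test. FAM172A introns gave -0.05 ± 0.08 in DMSO and NPM1, a nucleolar chaperone, fell by 0.15 ± 0.05. FAM172A exons fell by 0.60 ± 0.13 and its ratio fell by 0.49 ± 0.14 in DMSO (edgeR adjusted p = 0.0265), a call that was lost on leaving out any of 5 DMSO libraries in turn. PFN2 introns fell by 0.35 ± 0.08 in DMSO, where its own exons gave -0.37 ± 0.06 and TMEM183A exons -0.01 ± 0.05. The differences between these were not tested. ADGRE3, a receptor with 0 exon counts in every library, rose by 0.24 ± 0.08 in its introns in DMSO, where ITGB1 exons gave 0.09 ± 0.05. The genes compared here were those on the member's own strand with a mean of at least 1000 exon counts inside it, plus the parents of copies. No readthrough gene was among them, and the choice was made after values were seen. Genes inside on the opposite strand were not compared. Such genes include NANS in TRIM14, with a mean of 3210 exon counts, and ATF5 in IL4I1, with 1730.

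**Figure D4:**
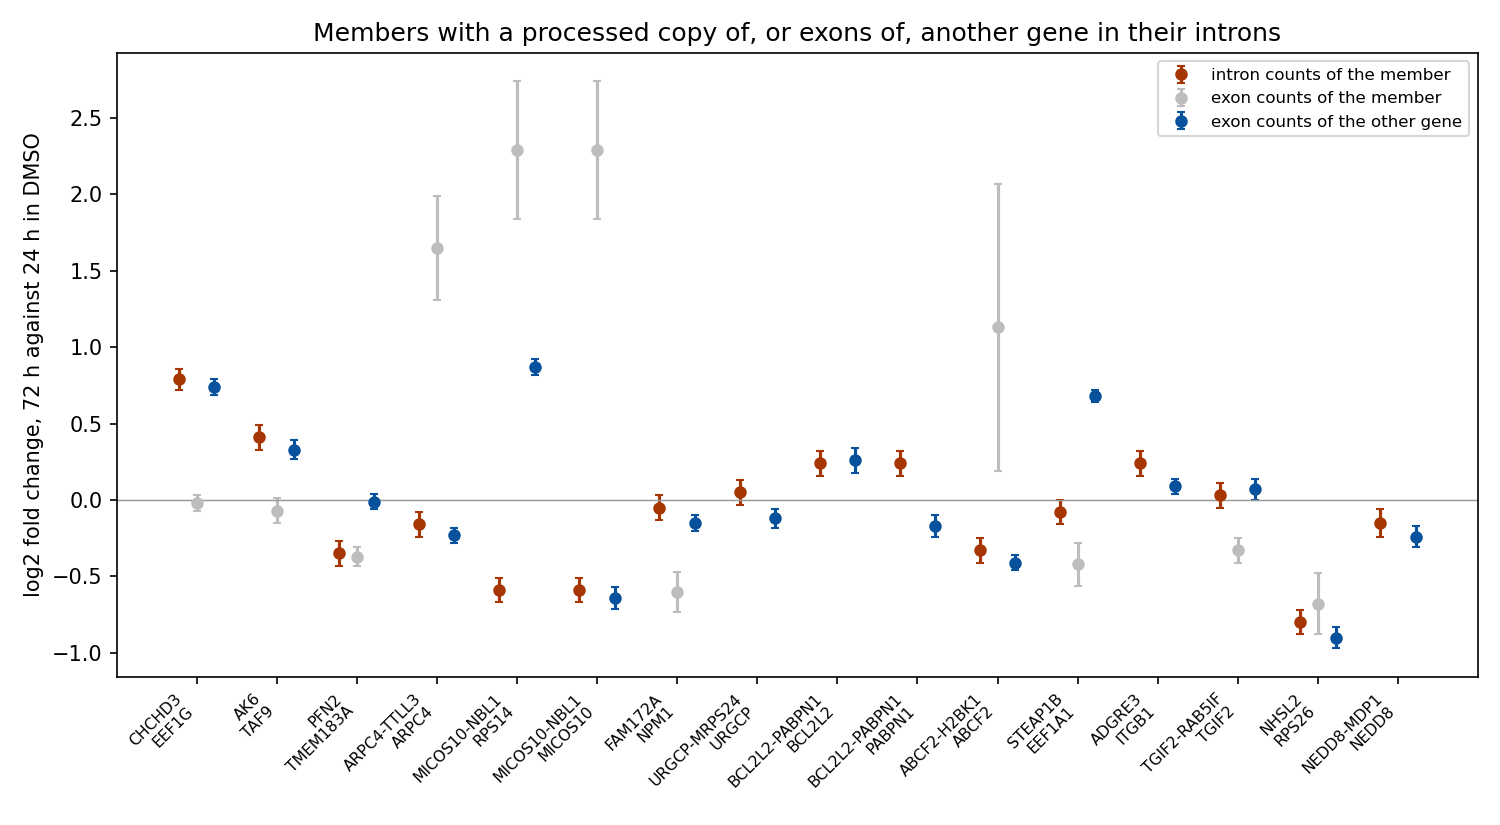
Log2 fold change from 24 to 72 h in DMSO, with its SE, of the intron counts of a member, of its exon counts where tested, and of the exon counts of the gene named below it, which lies in its introns or has a copy there. CHCHD3 and AK6 introns lie nearer the other gene than their own exons, and STEAP1B introns lie apart from EEF1A1. Differences between genes were not tested.

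In some readthrough members the ratio rose on few exon counts. MICOS10-NBL1 joins a mitochondrial cristae gene to a BMP antagonist gene. Its exon levels were 0.192, 0.14 and 0.162 CPM in DMSO at 24 h and 0.634, 0.872 and 0.909 at 72 h, against intron levels of 2300, 2550 and 2670 and of 1730, 1670 and 1600. The exon counts rose by 2.29 ± 0.45 and 1.35 ± 0.38, the intron counts fell by 0.59 ± 0.08 and 0.82 ± 0.08, and the ratio rose by 2.95 ± 0.36 and 2.24 ± 0.29. The exons of MICOS10, which lie in its introns, fell by 0.64 ± 0.07 and 0.88 ± 0.07, while RPS14, the ribosomal protein gene of the copy in the same gene, rose by 0.87 ± 0.05 and 0.58 ± 0.05 in exons. ARPC4-TTLL3 had exon levels of 0.652, 0.628 and 0.162 in DMSO at 24 h and 1.66, 1.9 and 1.34 at 72 h, and its ratio rose by 1.86 ± 0.28 and 1.33 ± 0.27. Its introns gave -0.16 ± 0.08 in DMSO, where ARPC4 exons fell by 0.23 ± 0.05.

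Of the 13 readthrough members, 11 had an exon entry and 7 of these had under 50 exon counts a library on average. In introns 3 of the 13 rose and 5 fell in DMSO, and 1 rose and 7 fell in cisplatin. Over all genes tested, 33.4% and 31.8% passed. Among those with a single well counted gene inside, ABCF2-H2BK1 introns fell by 0.33 ± 0.08 where ABCF2 exons fell by 0.41 ± 0.05, and NEDD8-MDP1 introns gave -0.15 ± 0.09 where NEDD8 exons fell by 0.24 ± 0.07. URGCP-MRPS24 introns gave 0.05 ± 0.08 in DMSO and -0.02 ± 0.08 in cisplatin, where URGCP exons gave -0.12 ± 0.06 in DMSO and fell by 0.19 ± 0.06 in cisplatin. TGIF2-RAB5IF introns gave 0.03 ± 0.08 and TGIF2 exons 0.07 ± 0.07 in DMSO, while the exons of TGIF2-RAB5IF itself fell by 0.33 ± 0.08. BCL2L2-PABPN1 introns rose by 0.24 ± 0.08 in DMSO, where BCL2L2 exons gave 0.26 ± 0.08 and PABPN1 exons -0.17 ± 0.07. The differences between these genes were not tested. NME1-NME2, the largest of them, gave 0.17 ± 0.07 in introns (adjusted p = 0.0523) in DMSO and 0.03 ± 0.07 in cisplatin. Its own inner genes had few counts: NME1 had a mean of 36.9 exon counts a library and 0 intron counts, and NME2 had no exon entry.

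IL4I1, a secreted amino acid oxidase of immune cells, had the highest ratio rise of all members in DMSO. Its exon levels were 0.844, 0.907 and 0.431 in DMSO and 0.568, 1.35 and 1.11 in cisplatin at 24 h, and 5.27, 3.91 and 4.88 in DMSO and 3.34, 3.88 and 4.36 in cisplatin at 72 h. Its intron levels were 2150, 2190 and 1850 in DMSO at 24 h and 1530, 1410 and 1460 at 72 h, so exons stood higher and introns lower at 72 h in every library. The exon counts rose by 2.62 ± 0.26 and 1.88 ± 0.25, the intron counts fell by 0.49 ± 0.08 and 0.48 ± 0.08, and the ratio rose by 3.19 ± 0.22 (adjusted p = 3.63e-10) and 2.43 ± 0.21. Exons of NUP62, a nuclear pore gene, cover 5460 bases of the IL4I1 introns on the same strand, and NUP62 itself had a mean of 23.2 exon counts. CPNE1, a calcium-dependent membrane-binding protein, had introns that fell by 0.75 ± 0.08 and 0.72 ± 0.08, with a ratio that rose by 0.69 ± 0.10 and 0.68 ± 0.10. The ratio also rose for the endothelial genes TIE1, by 0.34 ± 0.09 and 0.41 ± 0.09, and MCAM, by 0.34 ± 0.10 and 0.31 ± 0.10.

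Cisplatin against DMSO gave no call among the members in the edgeR fit of all 12 libraries. For intron counts 0 of 88 passed at 24 h, where 0.0208% of all genes passed, and 0 of 88 at 72 h, where 0.0416% passed (edgeR). At an unadjusted p under 0.05 there were 2 members at 24 h and 21 at 72 h. DESeq2 called 0 members at either time. The median member gave -0.04 at 24 h and -0.09 at 72 h, with 73 of 88 below 0 at 72 h. With library sizes from the exon counts these medians were 0.03 and -0.00. That scaling moved the medians over all genes as well, from 0.00 and -0.00 to 0.09 and 0.08. For exon counts 0 of 77 passed at 24 h, where 0% of all genes passed, and 0 at 72 h, where 0.0287% passed, with 1 and 10 members at an unadjusted p under 0.05. DESeq2 called 0 at 24 h and 1 at 72 h, which was TPT1. The ratio gave 0 calls of 77 at 24 h (0% of all genes) and 0 at 72 h (0.0213%), with 0 and 1 members at an unadjusted p under 0.05.

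The members with the smallest p-values at 72 h had changed with time in different ways. TPT1 exon levels at 72 h were 2860, 3340 and 2720 in DMSO and 2350, 2650 and 2570 in cisplatin, so that every cisplatin library lay below every DMSO library, and the difference was -0.24 ± 0.06 (edgeR adjusted p = 0.155). Without DMSO replicate 3 the TPT1 difference was -0.30 and passed (adjusted p = 0.0358), and over all alternatives its adjusted p ran from 0.00156, with no filter on low counts, to 0.794. AK6 intron levels at 72 h were 4360, 4670 and 4080 in DMSO and 3590, 3820 and 3590 in cisplatin, with a difference of -0.25 ± 0.08 (adjusted p = 0.567) and of -0.23 ± 0.08 in its exons. With only the 6 libraries compared in the fit the AK6 intron difference passed (edgeR adjusted p = 0.0268), and under the other alternatives its adjusted p ran from 0.172 to 0.986. MDK introns gave -0.26 ± 0.09 and those of ISY1, a spliceosome protein, -0.25 ± 0.08. RPLP0 introns gave -0.20 ± 0.07 and OAS1 introns -0.18 ± 0.09, neither past the threshold. TMED7-TICAM2 exons gave 0.20 ± 0.07.

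At 24 h the smallest p-values in introns belonged to PCDHGA4, a protocadherin, at -0.25 ± 0.08 (adjusted p = 0.742), MACF1 at -0.17 ± 0.07 and LUC7L2, a U1 snRNP-associated protein, at -0.16 ± 0.08. PCDHGA4 levels at 24 h were 1120, 1200 and 1200 in DMSO and 969, 967 and 1030 in cisplatin, which did not overlap, while at 72 h they ran from 1150 to 1220 over both treatments. In exons the smallest p-values at 24 h were those of CCNL2, a cyclin of nuclear speckles, at -0.19 ± 0.08, MATR3 (ENSG00000280987) at -0.10 ± 0.05 and MICOS10-NBL1 at 0.97 ± 0.55. In the ratio the values were -0.22 ± 0.12 for CCNL2, 0.85 ± 0.46 for MICOS10-NBL1 and -0.16 ± 0.11 for the membrane protein NPDC1 at 24 h, and -0.31 ± 0.13 for the RNA-binding DAZAP1, -0.32 ± 0.16 for IL4I1 and -0.18 ± 0.10 for SRSF11 at 72 h. None of these passed the threshold.

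The number of ratio calls for cisplatin depended on the model. A binomial logistic regression, the kind of model the study used, takes reads as the only source of error and called the ratio of 22 of 76 members at 24 h, 2 higher and 20 lower in cisplatin, where 11.5% of all genes passed. At 72 h it called 29 of 78, 6 higher and 23 lower, where 11.4% passed. With reads as the only source of error, a gene with more counts is called more easily. The members had a median of 4120 exon counts a library, against 596 over all genes, and were chosen on their intron counts. Their share of calls in this model is therefore not read against that of all genes. With the spread between libraries in the model, as in edgeR, the same comparisons gave 0 and 0. A quasi-binomial regression, which also estimates that spread, gave 0 and 0, with 4 and 7 members at an unadjusted p under 0.05.

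**Figure D5:**
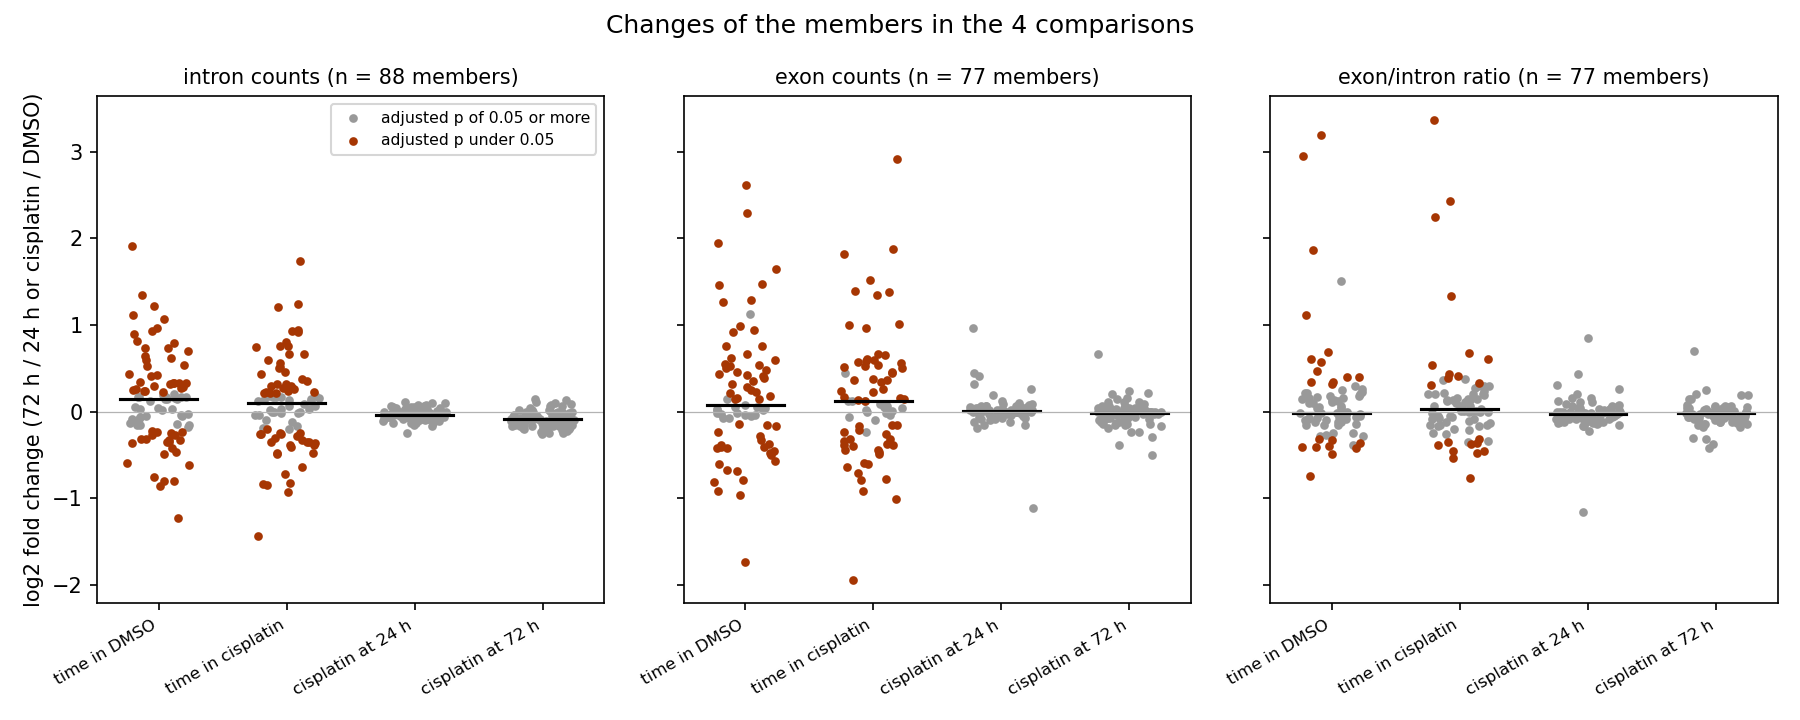
Log2 fold changes of the members in the 4 comparisons, for intron counts, exon counts and the ratio of exons to introns; dark points passed an adjusted p of 0.05 in edgeR and black bars are medians. Dark points appear in the time comparisons and in neither cisplatin comparison.

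The share of all intron counts held by the members was 19.4% ± 0.5 (SD, n = 3) in DMSO at 24 h and 18.9%, 18.3% and 19.8% in the libraries with cisplatin at 24 h (SD 0.784), and it was 20.9% ± 0.184 in DMSO and 20.1% ± 0.203 in cisplatin at 72 h. The share was 1.55 percentage points higher at 72 h in DMSO and 1.14 higher in cisplatin, and cisplatin differed from DMSO by -0.39 points at 24 h and by -0.80 points at 72 h. The members were chosen on raw sums of these same counts, in which deeper libraries weigh more, so these differences are a description with no test. With members chosen on sums scaled to library totals the share was 1.31 points higher at 72 h in DMSO and 0.91 higher in cisplatin, and in cisplatin the times then overlapped, with a library of 19.9% at 24 h and one of 19.8% at 72 h. The members' share of exon counts was 2.82% ± 0.0254 in DMSO at 24 h and 3.52% ± 0.0344 at 72 h.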

How the data were processed

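Poly(A) RNA of TYK-nu cells was sequenced as paired reads of 100 bases from a directional kit. The authors checked reads with FastQC 0.11.8, trimmed them with Trim Galore 0.6.0, aligned them to GRCh38 with HISAT2 2.1.0 and counted fragments with HTSeq on annotations of Ensembl 98, with intersection-strict mode on the exon side and union mode on the intron side. What the authors deposited are raw counts for each gene and library, neither normalized nor pooled. The strand option is not given in the sources used here, so overlapping, antisense and copied genes are uncertain.

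Groups came from the sample titles. Exon counts, intron counts and their ratio were each tested with edgeR 4.0.16 (R 4.3.3). All 12 libraries entered 1 fit. Genes were kept by filterByExpr and scaled by TMM. The ratio fit had a term per library, the library total as library size, and a minimum of 10 counts of each kind in 3 or more libraries. SE values are the log2 fold change divided by the root of the F statistic. Adjustment was by Benjamini-Hochberg over all genes tested. Levels are counts per 1000000 of the TMM-scaled exon or intron total. DESeq2 1.42.0, logistic regression, other scalings and filters, a replicate block, and leaving out each library were alternatives. Scripts were tested on simulated data.

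Gene models, coordinates and overlaps came from GENCODE 44, of the same build as Ensembl 98 but a later release. Processed pseudogenes were aligned to coding transcripts with blastn 2.17.0+ (e-value 1e-20). Python 3.11.15, numpy 2.4.6, pandas 2.3.3, matplotlib 3.10.9 and samtools 1.23.1 were used. The members, gene lists and tests were chosen with earlier results of these data known. The genes named are the 12 largest sums, those at the limit, up to 3 rises and falls per comparison with libraries that did not overlap, the smallest p-values for cisplatin, the largest of each list, the extremes of intron share and level, and members with no exon entry or another gene inside. Other members named for contrast were chosen after their values were seen.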

Additional observations from a re-analysis of the deposited data

How the results depend on the processing

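The side with more intron calls for time turned with the scaling. In DMSO the calls went from 35 up and 23 down to 25 and 34 with library totals, and in cisplatin from 33 and 26 to 24 and 31. The members' intron median for cisplatin at 24 h went from -0.04 to 0.03 with exon library sizes. Over all genes that median went from 0.00 to 0.09. Of the recomputed totals of called members and shares, 189 stayed near the value reported and 22 moved. No called value of a named gene changed sign under the alternatives run, where 663 recomputed values kept their side of the threshold, 14 lost it and 9 gained it. Leaving out each library in turn gave 55 to 58 and 56 to 60 exon calls with time in DMSO and cisplatin, 53 to 57 and 50 to 60 intron calls, and 12 to 16 and 13 to 19 ratio calls. Of 22 ratio calls, 10 in DMSO and 12 in cisplatin held without any 1 library, and FAM172A lost its ratio call without DMSO replicate 1 or 2 at 24 h or any DMSO replicate at 72 h (adjusted p from 0.0596 to 0.101). The exon calls for cisplatin at 72 h ran from 0 to 1. The 1 was TPT1, called without DMSO replicate 3 at 72 h (adjusted p = 0.0358), with no filter on low counts (1 call) and by DESeq2 (1 call). The share of intron counts moved by 1.33 to 1.82 points with time in DMSO, 0.78 to 1.56 in cisplatin, -0.81 to -0.03 for cisplatin at 24 h and -0.91 to -0.7 at 72 h. With only the 6 libraries compared, 1 member, AK6, passed for intron counts in cisplatin at 72 h (adjusted p = 0.0268). Among the 15 members that overlap no other gene, time gave 14 and 13 exon calls, 11 and 13 intron calls and 3 and 2 ratio calls, from fewer genes. Binomial regression gave 22 and 29 ratio calls for cisplatin and 61 and 61 for time, and quasi-binomial regression 3 and 5 for time. Replicate numbers did not pair the libraries: correlations of same-numbered libraries ran from -0.383 to 0.214. With the replicate block, time gave 58 and 58 intron calls, 60 and 61 exon calls and 19 and 20 ratio calls, and cisplatin 0 in each. A rule on sums scaled to library totals gave 87 members, of which 85 were shared. Depth limits members with few exon counts, such as MICOS10-NBL1, and intervals from the counts would cover counting error only.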
